A study of Mus musculus with 2 samples.

Results

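Members of the Id and AP-2 families were followed in the mammary glands of adult mice in which one or both alleles of Gata3 had been deleted. Of 38976 features on the array, 16 carry the symbol of 1 of the 9 listed genes, which are Id1, Id2, Id3, Id4, Tfap2a, Tfap2b, Tfap2c, Tfap2d and Tfap2e. The features of 15056 genes are named in all. The families were chosen by the measured ratios of Id3 and Tfap2d, which were strongly negative on both arrays. Every measure of these genes comes from that same contrast, so the values of all 9 are a description with no test.

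Id proteins are small helix-loop-helix proteins that lack a basic DNA-binding region. They pair with E proteins and other basic helix-loop-helix (bHLH) factors and keep them off DNA, and they are best known for holding cells in an undifferentiated or dividing state and as direct targets of bone morphogenetic protein (BMP) signals. AP-2 factors, encoded by the Tfap2 genes, bind GC-rich palindromes as dimers and act in neural crest, skin and breast epithelium. In the mammary gland Id2 is needed for alveolar development, Id4 is a factor of basal cells, and AP-2 gamma, the product of Tfap2c, acts in luminal cells.

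Each of 2 two-colour arrays carried RNA of GATA-3flox/+; WAP-rtTA-Cre glands (het) in Cy5 and RNA of GATA-3flox/flox; WAP-rtTA-Cre glands (null) in Cy3. Both genotypes carried the transgene WAP-rtTA-Cre, named for a milk protein promoter that is active in mammary epithelium, and both received doxycycline for 5 days. The control glands thus also carry 1 floxed allele, and no dye swap (0 arrays) was made. From the labels it is unclear if the arrays held separate animals, pools or one RNA, so an SD over arrays may be technical spread alone. In whole-gland RNA, fewer cells of a type and less RNA per cell cannot be told apart. With ratios alone, the presence of luminal markers in the tissue could not be checked as a level.

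The deposited values are log ratios, read here as log2. The numerator of the ratio is not stated in the labels or the design text. With Cy5 on top a positive value is an excess in het glands, and with Cy3 on top it is an excess in null glands, so signs are given as deposited. Gata3 itself was at 1.60 on array 1 and 0.21 on array 2, but its probe cannot be placed relative to the deleted exons, so this value leaves the direction unsettled. Ratios were wider on array 1 (SD over features 0.67) than on array 2 (0.44), and each array's median was near 0 (-0.00 and -0.03).

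Sequence upstream of the start is shown for Id3 and Tfap2d, the genes with the most negative ratios of each family, because the deleted gene encodes a DNA-binding factor that recognises GATA words. The windows hold the 250 bases before the RefSeq start (build GRCm38.p6), chr4:136143572-136143821 on the plus strand for Id3 and chr1:19102772-19103021 on the plus strand for Tfap2d. Capitals mark matches, on either strand, to 3 words. These are the GATA word AGATAA (a T was also allowed as its first base and a G as its last), the E-box CANNTG that bHLH dimers bind, and the AP-2 palindrome GCCNNNGGC.
Id3: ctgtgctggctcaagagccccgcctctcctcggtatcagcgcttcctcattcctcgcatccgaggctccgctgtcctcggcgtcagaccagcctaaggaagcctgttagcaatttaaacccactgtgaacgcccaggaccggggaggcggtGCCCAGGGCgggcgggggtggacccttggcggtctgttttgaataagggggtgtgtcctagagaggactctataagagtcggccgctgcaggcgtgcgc
Tfap2d: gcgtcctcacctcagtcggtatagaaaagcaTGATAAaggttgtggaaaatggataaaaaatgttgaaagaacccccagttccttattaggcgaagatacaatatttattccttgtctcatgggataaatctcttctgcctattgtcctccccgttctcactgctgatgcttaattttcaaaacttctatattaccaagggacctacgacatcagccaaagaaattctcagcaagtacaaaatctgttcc

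The Id3 window held 1 AP-2 palindrome, GCCCAGGGC at position -99, with 0 GATA words and 0 E-boxes. The Tfap2d window, at the outermost of its starts, held 1 GATA word, TGATAA at position -219, with 0 of the other words. A second, overlapping Tfap2d window held that same GATA word, and the third held 0 GATA words and 3 E-boxes. Positions give the first base of the word, counted back from the start. The table had windows for 7 of the 9 genes, 10 windows in all, with 3 for alternative starts of Tfap2d and 2 for those of Tfap2a. Of the other genes, Tfap2e had 1 GATA word and 3 E-boxes, while Id2 and Tfap2b had 1 E-box each. Id4 and both Tfap2a windows had 0 matches to any of them. Among all 32851 windows of this length in the table, 26.5% held a GATA word, 66.2% an E-box and 13.7% the AP-2 palindrome. A match describes these letters and no more. The 3 words sought do not overlap within the printed windows.

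Among the Id genes, each measured by 1 feature, the ratio of Id3 stood below those of the other 3 on both arrays. Id3 was at -1.44 on array 1 and -1.32 on array 2. Its mean was -1.38 ± 0.08 (SD, n = 2), a 2.61-fold difference, and on array 2 it lay at percentile 0.0924 of all features and on array 1 at percentile 1.41. As deposited, the arrays agree on the size of this ratio more closely than for any other Id gene, although array 2 was the narrower of the pair. This closeness depends on the scaling. After quantile normalization Id3 was at -1.14 on array 1 and -1.94 on array 2, a wider gap than for Id1, Id2 or Id4.

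Id2, the family member required for alveolar growth, was at -0.21 on array 1 and -0.68 on array 2. The mean was -0.45 ± 0.33 (SD, n = 2). It was negative on both arrays, within the bulk of the features on array 1 (percentile 31.5) and in the low tail on array 2 (percentile 3.11). Id1, a BMP target expressed in many cell types, was at -0.34 on array 1 and 0.00 on array 2. Id4 was at -0.22 on array 1 and 0.36 on array 2, with a mean of 0.07 ± 0.41 (SD, n = 2). For Id1 and Id4 the mean was smaller than the SD, so neither direction held across the arrays.

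In the AP-2 family the ratios of Tfap2d and Tfap2c were negative and the gene means of the other 3 lay near 0. Tfap2d, an AP-2 gene known chiefly from the developing brain and retina, was measured by 1 feature at -1.95 on array 1 and -1.37 on array 2. Its mean of -1.66 ± 0.41 (SD, n = 2), a 3.17-fold difference, was the most negative of the 16 features and lay at percentile 0.0462 of all features. No second feature was there to set beside it, and without intensities it is not known whether its spot stood above background.

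**Figure D1:**
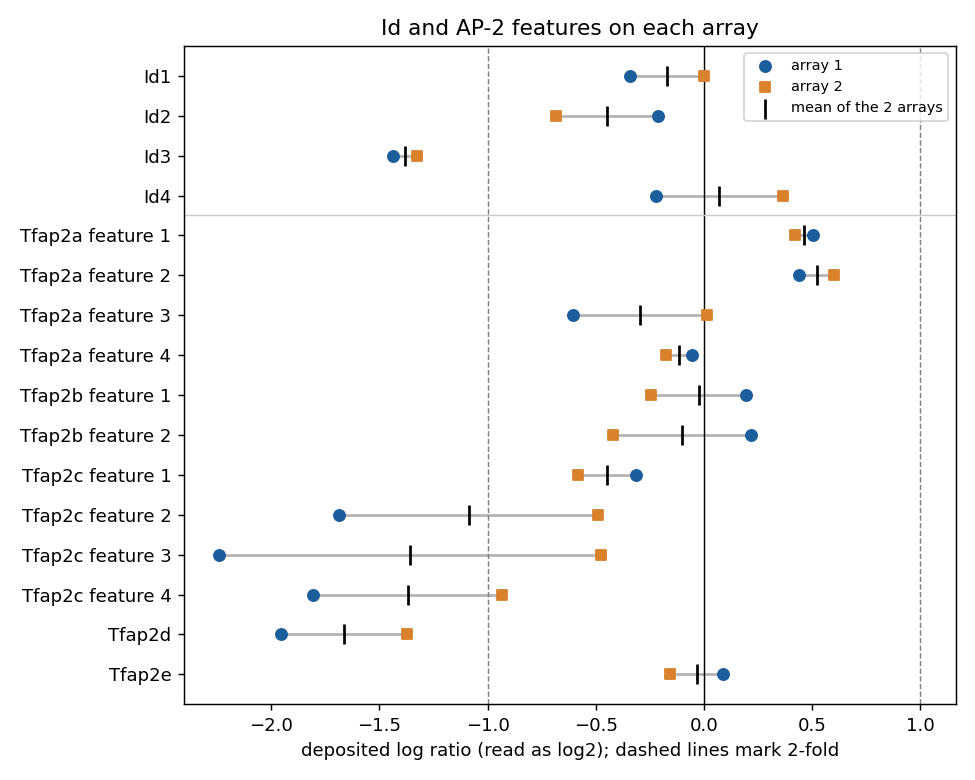
Deposited log ratio (horizontal axis, read as log2) of each of the 16 features of Id and AP-2 genes, with a circle for array 1, a square for array 2 and a bar for their mean; dashed lines mark 2-fold. Id3 and Tfap2d lie beyond 2-fold on both arrays, 3 Tfap2c features do so on array 1 alone, and the features of Tfap2a, Tfap2b and Tfap2e scatter about 0.

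Tfap2c, which encodes AP-2 gamma, was measured by 4 features, and all 4 were negative on both arrays. The first was at -0.32 on array 1 and -0.58 on array 2, and the second at -1.69 and -0.49. The third was at -2.24 and -0.47, and the fourth at -1.81 and -0.93. The means of the last 3 were thus -1.09, -1.36 and -1.37, against -0.45 for the first. Array 1 set the size of these means, since the features averaged -1.51 ± 0.83 there and -0.62 ± 0.22 on array 2 (SD over 4 features).

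All 4 Tfap2c features carry the same transcript accession, and the labels do not tell if they are one probe spotted repeatedly or several probes. They are not replicates of the comparison, because they share the same RNA on each array. Among 298 genes with 4 features, 10 genes, or 3.36%, had all of them negative on both arrays. Tfap2c had the most negative gene mean of the 298, at -1.07, and the next of those 10 was the RNA helicase gene Ddx5 at -0.65. The range of its feature means, 0.92, compares with a median range of 0.77 over these genes (quartiles 0.49 and 1.19).

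**Figure D2:**
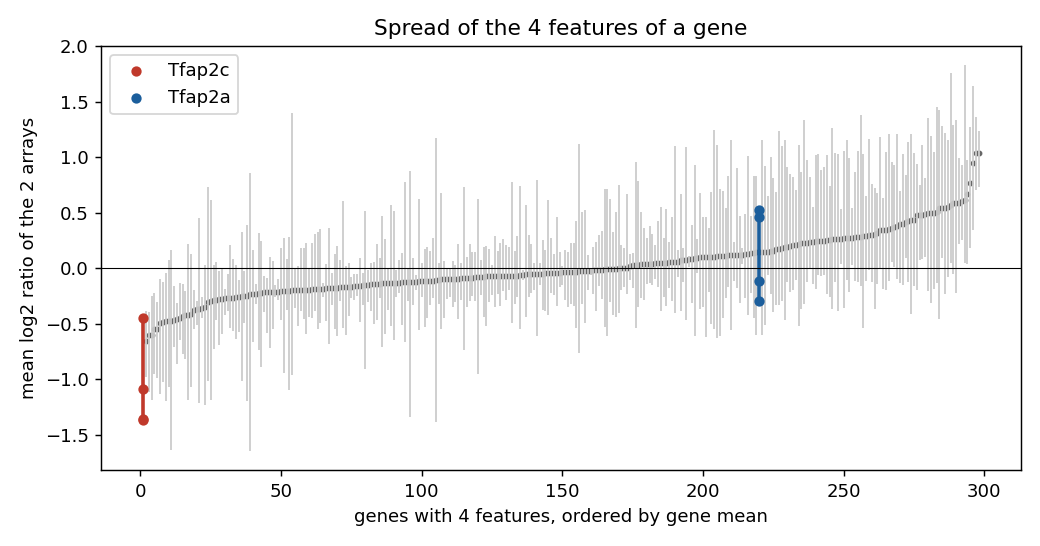
Mean log2 ratio of the 2 arrays (vertical axis) for the genes with 4 features, ordered along the horizontal axis by gene mean; each line runs from the lowest to the highest feature of a gene, and coloured points are single features of Tfap2c and Tfap2a. Tfap2c stands first of 298 genes from the negative end with all 4 features below 0, and Tfap2a stands at place 220 with features on both sides of 0.

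Tfap2a, which encodes AP-2 alpha, an AP-2 factor of skin and neural crest, also had 4 features but these did not share a sign. The first was at 0.50 on array 1 and 0.42 on array 2, and the second at 0.44 and 0.60. The third gave -0.61 and 0.01, and the fourth -0.06 and -0.18. The features fall into a pair that was positive on both arrays and a pair near or below 0, with a range of means of 0.82 that is close to the median range above. Averaging them gives 0.14 ± 0.10 (SD, n = 2), an average that hides this split.

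The 2 features of Tfap2b, a gene of kidney and neural crest, gave 0.20 and 0.22 on array 1 and -0.24 and -0.42 on array 2. These features matched each other within each array and changed sign between arrays. Tfap2e, an AP-2 gene known from the olfactory bulb, was at 0.09 on array 1 and -0.16 on array 2. No direction held across the arrays for either gene.

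Ordered by gene mean from the negative end, the genes ran Tfap2d (-1.66), Id3 (-1.38), Tfap2c (-1.07), Id2 (-0.45), Id1 (-0.17), Tfap2b (-0.06), Tfap2e (-0.03), Id4 (0.07) and Tfap2a (0.14). No neighbouring pair in this order differed by more than the spread of its difference between the arrays. Tfap2d and Id3 differed by 0.28 ± 0.33, and Id3 and Tfap2c by 0.32 ± 0.55 (SD, n = 2). The gap between Tfap2c and Id2 was 0.62 ± 0.96 (SD, n = 2). Among all neighbouring pairs, only the gap between Tfap2d and Id3 kept its sign on both arrays. Tfap2c lay below Id3 on array 1 (-1.51 and -1.44) and above it on array 2 (-0.62 and -1.32). Adjacent places in the order are therefore not told apart by these arrays.

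Counted over features, 8 of 16 were negative on both arrays and 2 were positive on both. The remaining 6 shared no sign, with Id1 among them because it was at 0.00 on array 2. Of all features, 34.8% were negative and 30.7% positive on both arrays. The 8 negative features include Id3 and Tfap2d, which led to the choice, and the 4 of Tfap2c, so nothing is read from this count. At least 2-fold from 0 on both arrays and negative were 2 features, Id3 and Tfap2d, where 0.254% of all features were, and 0 were positive, where 2.14% of all were. Those 2 features are the ones that led to the choice of the families, so nothing is read from that count. On array 1 alone 5 features were 2-fold negative, the additional 3 all of Tfap2c, and on array 2 alone the count stayed at 2. The median over the 16 features was -0.27 on array 1 and -0.33 on array 2, beside -0.00 and -0.03 for all features. It includes the 2 features that led to the choice and counts Tfap2c 4 times, so nothing is read from it. For the means of the arrays the median was -0.23 over features and -0.17 over genes.

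**Figure D3:**
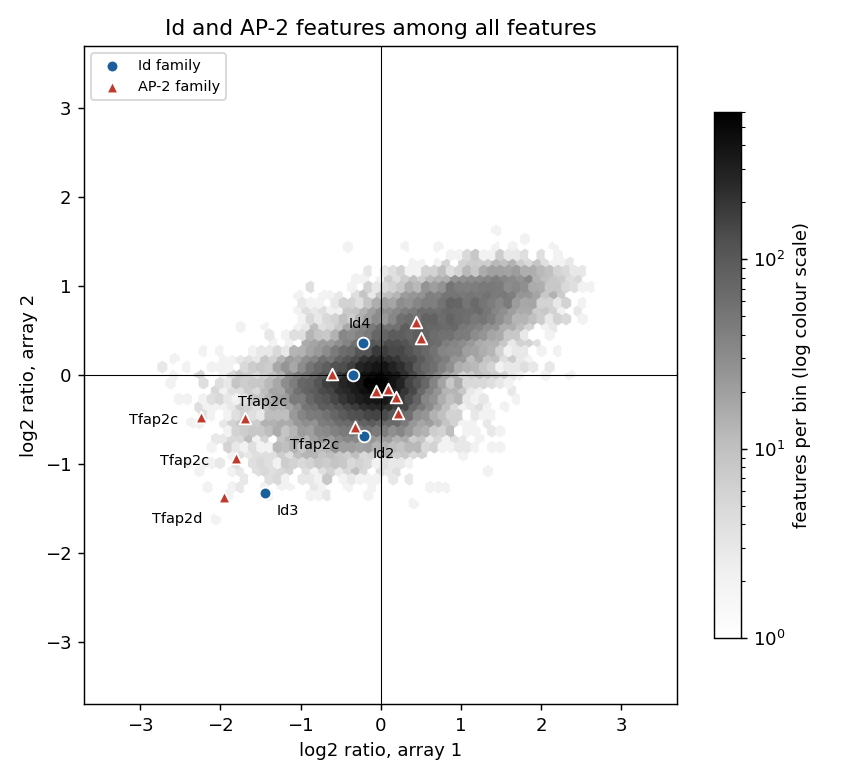
Log2 ratio on array 1 (horizontal axis) against array 2 (vertical axis) for all 38976 features as grey hexagons (log colour scale), with Id features as circles and AP-2 features as triangles. Id3 and Tfap2d lie at the lower left edge of the cloud, and 3 of the Tfap2c features lie far to the left but higher on the axis of array 2.

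The features sat in different places in the numbering of the array. The 16 features fell in 15 of 48 equal runs of consecutive feature numbers, of 812 features each. Medians of those runs were between -0.02 and 0.02 on array 1 and between -0.06 and -0.02 on array 2. With run medians this close to 0, subtracting them could move no ratio by more than that, and it left Id3 at -1.35 and Tfap2d at -1.65. Bias of a probe towards one dye moves a ratio the same way on both arrays of this design and cannot be told apart from genotype.

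The genes with ratios closest to Id3 on both arrays, by Euclidean distance over the 2 arrays, were Zfand2b (-1.48 and -1.24), the autophagy gene Atg5 (-1.54 and -1.31) and the endothelin gene Edn3 (-1.39 and -1.22). Those closest to Tfap2d were Mtf2 (-1.86 and -1.33), Zbtb7c (-1.78 and -1.41) and the ribosomal protein gene Rps29 (-1.73 and -1.24). Distances were at most 0.109 around Id3 and at most 0.261 around Tfap2d. With 2 arrays such likeness is weak, and Zfand2b (3 features), Atg5 and Mtf2 (2 features each) are given here by their nearest feature alone.

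Known partners, upstream signals and targets of both families were tested gene by gene with limma against a ratio of 0, after the features of a gene were averaged. The lists name 106 genes, of which 94 were measured. Of these, 5 genes or 5.32% passed an adjusted p of 0.05, 3 on the positive side and 2 on the negative, beside 7.28% of all genes on the positive and 0.983% on the negative side (8.26% in all). Before averaging, 0 features of the whole array passed (0.0%), with the lowest adjusted p at 0.0512 and 8559 features at an unadjusted p under 0.05 in limma. The calls below come from the gene-level fit alone. The 5 genes called have 1 feature each, so their ratios are the same in both fits, which differ in the number of tests and in the fitted prior. In the gene-level fit 2 of the 9 Id and AP-2 genes passed, Id3 and Tfap2d, from which nothing is read because that contrast chose them.

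The E proteins, the direct partners of Id proteins, had small negative ratios and none passed. Tcf3 was at -0.11 on array 1 and -0.27 on array 2, Tcf4 at -0.21 and -0.48, and Tcf12 at -0.27 and -0.03. All 3 were negative on both arrays, where 34.1% of all genes were, with a list median of -0.19 beside -0.02 for all genes.

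Of 27 measured tissue bHLH factors, which dimerize with E proteins, 2 passed on the positive side and 0 on the negative. Myf5, a muscle determination factor, was at 1.72 on array 1 and 0.98 on array 2 (limma adjusted p = 0.0336). Neurog2, a neuronal determination factor, was at 1.36 and 0.85 (limma adjusted p = 0.0338). Atoh1, a further neuronal factor, was at 1.36 and 0.61 and did not pass. Intensities were not used here, so whether these spots stood above background is not known. The list had 10 genes (37.0%) negative and 8 positive on both arrays, with a median of -0.14. Of all 15056 genes, 34.1% were negative and 5078 positive on both.

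Among 15 other binding partners and responders of Id proteins, 1 gene passed. Brca1, a DNA repair gene reported in human breast cells to respond to Id4, was at 1.75 on array 1 and 0.76 on array 2 (limma adjusted p = 0.0401). The retinoblastoma-like genes went opposite ways without passing, Rbl1 at 0.64 and 0.39 and Rbl2 at -0.92 and -0.27. The list median was -0.08. The cell cycle inhibitor genes Cdkn1a (-0.27 and -0.28) and Cdkn2a (-0.12 and -0.04) lay near 0 and were chosen after their values were seen.

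The BMP and Smad list, which holds the signals upstream of Id genes, had 0 of 25 measured genes past the test in either direction. With 12 genes negative and 6 positive on both arrays, its median was -0.15. The largest ratios with one sign were those of receptors. Bmpr1a was at 0.62 on array 1 and 0.57 on array 2, Bmpr2 at 0.84 and 0.35, and Tgfbr1 at 0.59 and 0.40.

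For AP-2, 0 of 8 measured cofactors passed. Kdm5b, a histone demethylase, was at 0.74 on array 1 and 0.53 on array 2, the acetyltransferase gene Ep300 at -0.45 and -0.38, and Cited1 at -0.57 and -0.19, with a list median of -0.22. Of 17 measured genes described as AP-2 targets, 2 passed with a negative and 0 with a positive ratio. Gpx1, a glutathione peroxidase, was at -1.07 and -0.75 (limma adjusted p = 0.0384). Krt5, a basal keratin, was at -1.31 and -0.62 (limma adjusted p = 0.0494). Its basal partner Krt14 was at 1.10 and 0.51 and did not pass. On both arrays 9 of the 17 targets (52.9%) were negative, beside 34.1% of all genes, and 4 were positive, beside 5078 of 15056 genes. The median of the targets was -0.13. Whether the list departs from all genes was not tested.

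**Figure D4:**
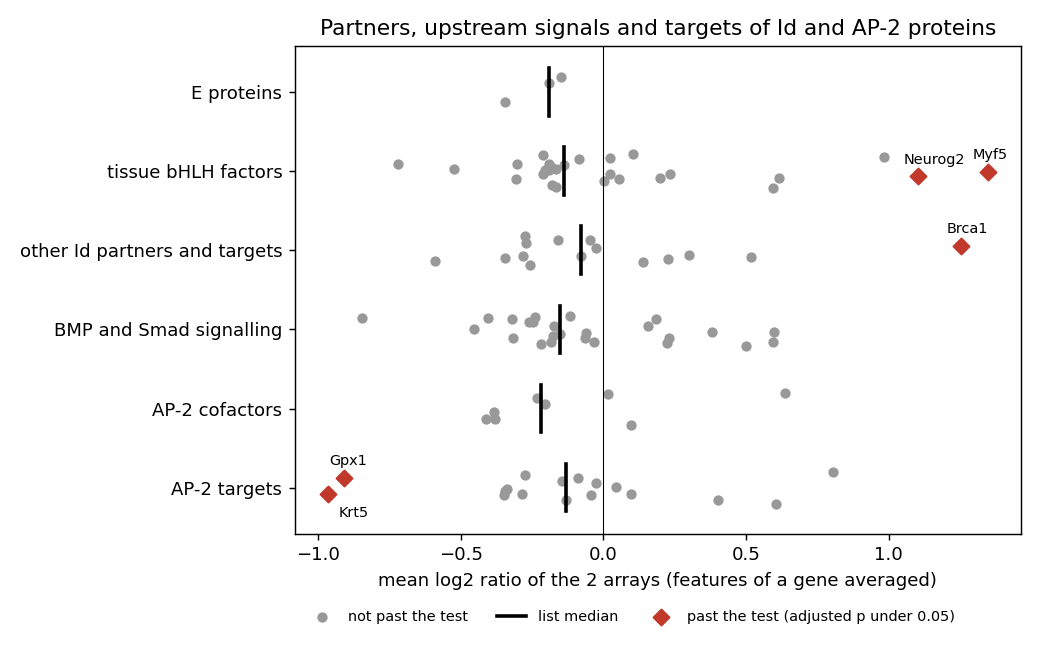
Mean log2 ratio of the 2 arrays (horizontal axis) for each measured gene of the 6 lists of partners, signals and targets, with a black bar at the list median and red diamonds for genes past an adjusted p of 0.05 (limma, gene level). Myf5, Neurog2 and Brca1 lie on the positive side and Krt5 and Gpx1 on the negative side, while every list median lies between -0.22 and -0.08.

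Calls near the threshold did not all hold. The genes called were followed in 8 fits that differed in scaling, centring, filter, prior or the summary of a gene's features. Myf5, Neurog2 and Gpx1 passed in all 8, Brca1 in 7 and Krt5 in 6. The highest adjusted p was 0.0527 for Brca1 and 0.0624 for Krt5 (limma). All 8 fits reuse the same arrays in the same dye orientation. Passing in them therefore rests on how closely these arrays repeat a ratio. It does not tell genotype apart from dye bias of a probe, and separate animals are not known. Of all genes, 1096 passed on the positive and 148 on the negative side in the main gene-level fit. The cause of this imbalance was not tested.

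Markers of cell types in which these families are known to be active were measured beside them. Endothelial markers, the cells in which Id1 and Id3 are known, were negative on both arrays in 3 of 9 genes and positive in 3, and their medians stood at -0.03 (array 1) and 0.16 (array 2). For luminal markers, where AP-2 gamma acts, the medians were -0.44 on array 1 and 0.04 on array 2, with 3 of 8 negative and 2 positive on both arrays. Basal markers had medians of 0.02 and -0.10. Fibroblast markers had medians of -1.22 and -0.09, adipocyte markers -0.37 and -0.08, skin markers 0.13 and -0.32, and immune markers -0.23 and 0.18. Negative on both arrays were 3 of 7 basal, 4 of 6 fibroblast and 4 of 8 adipocyte markers. So were 1 of 5 skin and 2 of 5 immune markers. Positive on both were 2, 0, 2, 1 and 2 in that order. Of all 15056 genes, 34.1% were negative and 5078 positive on both. Of 5 measured skin markers 1 passed the gene-level test, Lor at 1.045 and 0.97 (limma adjusted p = 0.0336), where 8.26% of all genes passed. Of 7 measured basal markers 1 passed, Krt5, given above among the AP-2 targets. No marker of the other lists passed. The fibroblast, luminal, adipocyte, immune and endothelial medians were lower on array 1, and the basal and skin medians were lower on array 2. Members of one list went both ways, such as Krt5 and Krt14. The part of these cell types in the Id and AP-2 ratios was not tested.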

How the data were processed

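Per the series' design text, RNA was taken up in Trizol, one genotype was labelled per dye, and the authors normalized the spotted oligonucleotide arrays by print-tip lowess in Acuity 4.0. The deposited log ratios were read as log2 values because of their range. Log base, numerator, centring, background correction and spot filters are unstated in the labels and the design text. If the base is another, all log2 values scale by 1 factor and the folds change with them, each by its own amount. Intensities were not used here, so no filter on dim spots was made. Precision is limited by the number of arrays. Each of the 38976 features had both values, and 0 value columns stayed unused.

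A single gene symbol was listed for 22973 features, several for 0 and none for 16003. Entrez IDs linked all 22973 to RefSeq genes (GRCm38.p6), used for names. Promoter sequences are from RefSeq.

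limma 3.58.1 in R 4.3.3 tested ratios against 0, two-sided, with an intercept as the only term. Benjamini-Hochberg adjustment ran over all features or all genes, at a threshold of 0.05. With 2 arrays there is 1 residual degree of freedom, so the test borrows spread across features. The procedure was tested on simulated data. All 9 genes are named, and from each list every gene past the gene-level test, together with the 3 of largest absolute mean among genes whose arrays share a sign. The members and lists were chosen with earlier results of these data known. Alternatives were other centrings and scalings of the arrays, a filter on disagreeing features, a robust prior, other thresholds, and the median of a gene's features. Figures were drawn with matplotlib 3.10.9.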

Additional observations from a re-analysis of the deposited data

How the results depend on the processing

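The median over the 16 Id and AP-2 features was -0.23, and by construction 0.23 with the sign of both arrays turned. It was -0.19 with arrays at equal median absolute deviation, -0.17 over genes in place of features, and -0.33 to -0.27 when either array was left out. The 2 features at least 2-fold negative on both arrays became 2 to 5 with either array left out, 5 being the count without array 2, and 3 at equal median absolute deviation, after quantile normalization or at 1.5-fold. At equal median absolute deviation the third was the fourth Tfap2c feature (-1.54 and -1.09). The share of all features was not counted under these settings, so nothing is read from these counts. Under the rescalings and centrings 1 single feature moved by more than its SD, Id3, to -1.54 after quantile normalization. Leaving out an array replaces a mean by the other array's value, so the third Tfap2c feature becomes -2.24 or -0.47. Id4, Tfap2e, both Tfap2b features and the third Tfap2a feature differ in sign between arrays. Over the whole array, where 0 features passed in limma, the count became 4929 at an adjusted p of 0.1, 2724 with medians subtracted, 5014 at equal median absolute deviation, 5121 after quantile normalization, 7452 with features dropped whose arrays differed by more than 1, 2518 with the medians of 48 runs subtracted (chosen after seeing the data) and 1244 for genes. The 1244 genes became 2113 at an adjusted p of 0.1, 2052 at equal median absolute deviation, 2391 after quantile normalization and 2815 with features dropped. The 5 partner and target genes past the test became 13, 11, 12 and 15 in the same order, and 3 with the median of a gene's features. The causes were not tested. Dropping features by the difference between their arrays removes wide spreads by construction. The test takes its spread from that same difference, so the counts under this filter are no support for a call. With 1 array no residual degree of freedom is left, so no test was run without either. No paired analysis was possible because genotypes were compared within each array and both arrays form 1 group. Signal over background was not used here, so its limit is unknown.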
